A study of Drosophila melanogaster with 2 samples.

Results

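Distal intronic peaks were the ChIP-seq peaks of the Drosophila transcription factor twin of eyeless (toy) that lay inside a gene, in no exon, and more than 2000 bp from the nearest transcription start site (TSS) of any gene. They were 244 of the 1402 peaks on chromosome arms in the conservative, thresholded peak list of the series, or 17.4% (95% Wilson interval 15.5% to 19.5%), and 52.7% of the 463 intronic peaks more than 500 bp from a TSS. Each peak was placed by its summit, the base with the highest enrichment, on the dm6 genome with Ensembl gene models. Chromatin immunoprecipitation and sequencing (ChIP-seq) had been done with an antibody against GFP on whole embryos aged 0 to 24 h. The embryos came from the transgenic strain toy-GFP, which carries an insertion targeting toy and makes a toy-eGFP fusion protein. Chromatin had been sonicated, with a stated size range of 200 to 800. The series holds 1 group of 2 biological replicates, so no condition was compared, and the labels do not name what drives the transgene. Because whole embryos of mixed age were used, a site bound in few cells and a site bound weakly in many cannot be told apart. The signal value of a peak is the authors' own measure of enrichment, and it is used here to describe and rank peaks.

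Toy is one of the Drosophila proteins of the Pax6 type, the transcription factor family known for its role in eye development in insects and vertebrates. Such proteins carry a paired domain and a homeodomain, each of which contacts DNA, and toy is known in the fly as an activator of eyeless (ey), a further Pax6 gene, through an enhancer in an ey intron. Long introns of Drosophila developmental genes are a common location of enhancers, which act on promoters at a distance.

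The sequences around the summits of the strongest of these peaks show the letters that the tests below turn on. Windows reaching 100 bp to each side of the summit were read from the plus strand of the RefSeq Release 6 genome, the same assembly as dm6. They are the 4 peaks with the highest signal values on arms 2L, 3L, 3R, 4 and X, in Tlk (chrX:3742127-3742327), CG32486 (chr3L:3060678-3060878), Gug (chr3L:8458224-8458424) and Raf (chrX:2297605-2297805). The next 2 are further strong peaks with the 6-mer ACAGTG, in rdx (chr3R:14012645-14012845) and mnb (chrX:17880365-17880565), a choice made after that 6-mer's values were seen. The last 2 are the peaks in the eye development genes ey (chr4:709767-709967) and hth (chr3R:10597682-10597882). Capitals mark ACAGTG and AGTGTA on either strand, the 6-mers with the smallest p in the paired test of summits against flanks.
Tlk: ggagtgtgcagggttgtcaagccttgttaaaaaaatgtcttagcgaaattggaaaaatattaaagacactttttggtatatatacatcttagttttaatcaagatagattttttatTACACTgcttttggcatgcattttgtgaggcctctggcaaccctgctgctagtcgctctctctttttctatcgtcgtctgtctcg
CG32486: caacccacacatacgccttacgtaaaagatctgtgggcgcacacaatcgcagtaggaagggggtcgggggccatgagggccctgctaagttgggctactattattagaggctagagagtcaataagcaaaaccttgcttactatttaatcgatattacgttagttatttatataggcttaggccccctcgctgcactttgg
Gug: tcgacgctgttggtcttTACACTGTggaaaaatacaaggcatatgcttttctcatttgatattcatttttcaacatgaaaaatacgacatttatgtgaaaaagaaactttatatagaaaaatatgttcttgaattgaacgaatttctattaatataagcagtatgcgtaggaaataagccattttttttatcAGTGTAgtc
Raf: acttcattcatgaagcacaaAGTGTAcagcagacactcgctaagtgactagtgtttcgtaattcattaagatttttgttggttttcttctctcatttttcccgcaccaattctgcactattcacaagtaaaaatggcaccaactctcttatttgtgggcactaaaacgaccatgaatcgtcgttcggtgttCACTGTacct
rdx: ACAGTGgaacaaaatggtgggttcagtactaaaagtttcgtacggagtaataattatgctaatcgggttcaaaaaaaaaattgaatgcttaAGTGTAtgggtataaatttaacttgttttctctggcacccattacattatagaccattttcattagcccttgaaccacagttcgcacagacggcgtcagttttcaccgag
mnb: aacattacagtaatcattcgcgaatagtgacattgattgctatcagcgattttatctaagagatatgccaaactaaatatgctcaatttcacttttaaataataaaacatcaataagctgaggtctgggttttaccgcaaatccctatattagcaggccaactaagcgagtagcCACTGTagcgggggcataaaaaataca
ey: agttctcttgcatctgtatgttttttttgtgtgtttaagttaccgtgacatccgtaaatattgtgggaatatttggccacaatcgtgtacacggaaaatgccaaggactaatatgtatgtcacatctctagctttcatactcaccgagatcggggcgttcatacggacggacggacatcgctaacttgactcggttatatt
hth: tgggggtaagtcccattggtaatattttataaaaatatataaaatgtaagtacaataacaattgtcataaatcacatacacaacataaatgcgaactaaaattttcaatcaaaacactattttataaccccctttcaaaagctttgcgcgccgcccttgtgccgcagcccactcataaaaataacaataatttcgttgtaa

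The Gug, Raf and rdx windows held both 6-mers, the mnb window held ACAGTG alone, and the Tlk window held AGTGTA alone. The CG32486, ey and hth windows held neither. The guanine and cytosine (GC) content of these windows ran from 28.9% in Gug to 47.3% in CG32486.

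Before any value is read, 15 of the 244 peaks stand apart, because each overlapped a stronger distal intronic peak whose summit lay 200 to 243 bp away. Their signal values in the series list ran from 2.10 in Gclc to 48.7 in chm, with a median of 10.8, and they included all 11 distal intronic peaks with a value below 20. In both replicates each of the 15 shared its peak with the stronger neighbour, so it had no separate measurement there. The other 229 peaks had signal values of 61.2 upward with a median of 95.7, against 92.6 (quartiles 78.6 and 117) for all 244. Peak widths hardly varied: 225 of the 244 (92.2%) were exactly 340 bp wide, against 82.8% of all arm peaks.

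The strongest distal intronic peak lay in intron 4 of Tlk (FBgn0283657), which encodes the Tousled-like kinase (dm6 X, 3742111 to 3742330). Its signal value was 535 in the series list, 301 in replicate 1 and 241 in replicate 2, and its summit was 2330 bp from a Tlk TSS. The peak in the first intron of CG32486 (3L, 3060688 to 3060902) followed at 453, with 237 and 222 in the replicates. Both stood above every other distal intronic peak in each replicate. The third, at 342 with 182 and 154 in the replicates, lay where the genes CG46321, CG12912 and Hr3 overlap, Hr3 being a nuclear receptor induced by the moulting hormone ecdysone. The peak in Gug, which encodes the Atrophin corepressor, had a series value of 303 and was higher in replicate 2 (178) than in replicate 1 (125). CG12769 held a peak of 271.

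The rest of the 20 strongest included peaks in signalling and chromatin genes. Raf, the kinase that couples Ras to the MAP kinase cascade, held peaks of 260.0 and 191, the latter measured at 113 and 79.8 in the replicates. The gene simj, for a subunit of the NuRD chromatin remodelling complex, held peaks of 238 and 195 in one intron of 19639 bp. Mastermind (mam), a coactivator of Notch, held one of 223. The antagonist of EGF receptor signalling argos (aos) held one of 189.9, at 104 in replicate 1 and 86.1 in replicate 2. The peak in rdx, which encodes an adaptor for degradation of the Hedgehog effector Ci, had a value of 225 in the series list and 111 in each replicate, and lay 13217 bp from a TSS. The kinase gene mnb held a peak of 222, the ubiquitin-conjugating enzyme gene eff one of 212, the metalloprotease gene AdamTS-B one of 193 and the nuclear receptor gene Hr4 one of 180.0. CG13894 (233), CG34417 (182), CG9328 (178) and Nak (178) complete the 20. All 20 were in the thresholded lists of both replicates.

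The 244 peaks fell in 188 protein-coding genes, 4.45% of the 4224 with any distal intronic sequence, and 6 peaks lay outside protein-coding genes, in long noncoding RNA genes. Of the 188 genes, 48 held at least 2 peaks and 7 held at least 3. Both counts include overlapping peaks, so some of these genes held fewer separate peaks. Of the 244 peaks, 10 lay in at least 2 protein-coding genes and were counted for each. Examples are the peaks shared by aos and CG33158, by Mi-2 and Su(Tpl), and by emc and hng3. CG12912 and Hr3 were both counted for the same 2 peaks. Gene length moved with this count: the 188 genes had a median of 19469 bp of distal intronic sequence, against 1642.5 bp for all 4224. In the quartile of genes with the most such sequence 139 of 1056 held a peak, and in the quartile with the least 0 of 1060 did. Per megabase, the upper quartile held 5.17 peaks and the next, with up to 8.61 kb per gene, held 11.7. The quartile below that, with up to 1.64 kb per gene, held 3.94, from peaks in 3 of 1052 genes. The one with the least, with up to 0.245 kb per gene, held 0. Both of these quartiles had little such sequence per gene, so their densities rest on few peaks or none.

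Hr4 and sbb each held 5 peaks. In Hr4 (FBgn0264562) they had signal values of 180.0, 173, 135, 98.0 and 76.3 and were spread from 5.8 to 42.4 kb from the 5′ end of the gene. In sbb (FBgn0285917), which encodes the nuclear zinc-finger protein Scribbler, the values were 176, 157, 145, 110 and 86.5, all 5 in the first intron of 49364 bp. There, 4 of the sbb peaks lay within a stretch from 18.8 to 23.9 kb, each in the thresholded lists of both replicates. Raf held 4 peaks, all in 1 intron of 43637 bp and within 8.8 kb of the 5′ end, of which the weakest (45.5) was one of the 15 overlapping peaks. Pdp1, for a basic leucine zipper factor of the circadian clock, held 4, of which 1 (10.8) was an overlapping peak. Star (S), needed for export of EGF receptor ligands, held 3 (178, 85.6 and 70.3) in a single intron. The adhesion gene kirre (118, 94.3 and 76.7) and the Sno family corepressor gene Snoo (107, 102 and, overlapping, 25.6) also held 3 each. The kirre peak of 118 also lay inside CG32795, whose TSS was the nearest, at 2588 bp. In kirre 287.53 kb of distal intronic sequence gave 1.04 peaks per 100 kb, against 11.1 in Hr4 and 16.3 in Raf.

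**Figure D1:**
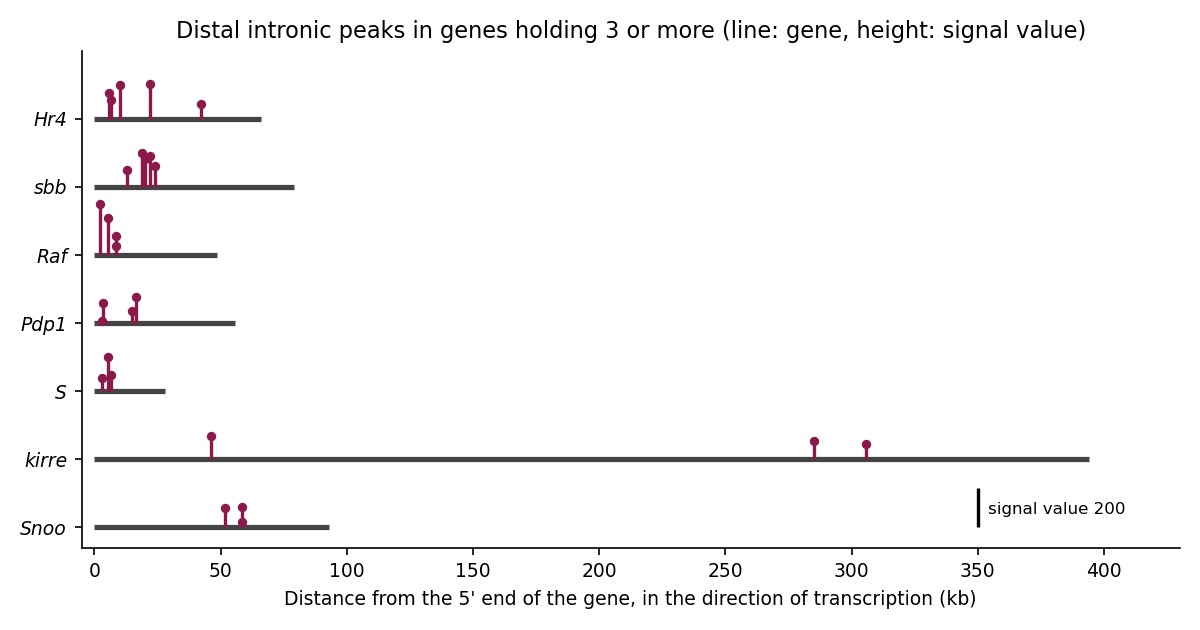
Positions of distal intronic peaks along the 7 genes that held 3 or more, in kb from the 5′ end of each gene, with the height of each pin giving the signal value in the series list. The 5 sbb peaks and the 4 Raf peaks sat close together, while the 3 kirre peaks were spread from 46.4 to 305.7 kb.

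Among 20 Pax and retinal determination genes, 16 had distal intronic sequence and 2 of these, ey and hth, held a peak. The ey peak (4, 709697 to 710036) lay 2438 bp from an ey TSS in intron 3 and had a signal value of 81.7, rank 170 of the 244. It measured 50.5 in replicate 1 and 32.0 in replicate 2, and it was in the thresholded list of replicate 1 but not of replicate 2. It was also the single distal intronic peak on chromosome 4. The peak in hth, which encodes a homeodomain partner of Extradenticle, had a value of 136 with 75.2 and 61.6 in the replicates, was thresholded in both, and lay 16494 bp from a TSS (3R, 10597612 to 10597951). The group's density of 9.44 peaks per megabase of distal intronic sequence rests on these 2 peaks. Over all genes it was 5.78.

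Further gene groups were counted over hand-made lists, which do not hold every gene of a pathway. The listed genes of EGF receptor, FGF, Notch and Ras signalling held 22.2 peaks per megabase (8 peaks, in 6 of 26 genes). Raf and S, described above, are not on that list. Besides mam and aos they were the ETS repressor aop (159, with 80.8 and 76.1 in the replicates), the ETS activator pnt (114), the helix-loop-helix inhibitor emc (101.4) and the receptor gene N (98.8). The listed Wnt, Hedgehog, Dpp and JAK-STAT genes held 18.97 per megabase, with peaks in 7 of 34 genes. Of these the zinc-finger factor shn had the strongest (154), followed by the inhibitory Smad Dad (116), the receptor fz (115) and the Wnt co-receptor arr (106). The ligand gene dpp held one of 96.6, and sog and Socs36E held 1 each.

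The ecdysone cascade and nuclear receptor genes held 18.7 per megabase, 12 peaks in 5 of 21 genes, led by Hr3, with a second peak of 89.4, and Hr4. The cyclin-dependent kinase gene Eip63E had peaks of 165 and, overlapping it, 3.95, the nuclear receptor gene Eip75B had peaks of 117 and 72.5, and ftz-f1 had one of 79.3. Tracheal and epidermal genes held 14.8 per megabase in 5 of 23 genes: shn and pnt again, the transcription factors grh (106) and rib (105), and the fascin gene sn (94.4 and, overlapping, 10.1). Muscle genes held 13.1 per megabase in 3 of 25 genes, the integrin gene mew (92.7), mbc (80.4) and how (74.6). The listed chromatin regulators held 12.4 in 3 of 28 genes, trx (88.4), Psc (72.8) and psq (70.2). That list leaves out chromatin genes with stronger peaks, such as simj (238), the remodeller Mi-2 (177) and the histone methyltransferase gpp (157), Mi-2 and gpp being picked for their values.

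The neuronal lists held fewer peaks per megabase than all genes (5.78), but for 2 of them a larger share of genes held a peak than the 4.45% of all genes. In the quartile of genes with the most distal intronic sequence that share was 13.2%. Axon guidance and neural adhesion genes held 4.16 per megabase, with peaks in 7 of 55 genes (12.7%), the strongest in side (139.6, with 65.8 and 75.9 in the replicates), kirre, sli (106) and ed (96.5). The listed neuronal RNA-binding genes held 2.52, in 3 of 22 genes (13.6%), pum (90.1), how and Rbfox1 (73.7). Of these, how is also on the muscle list, so its peak was counted in both. The order of the lists thus depends on the measure. Density also varied with the amount of distal intronic sequence per gene, as given above for the quartiles. Ion channel and synapse genes held 0.773, which is 1 peak, in dnc (87.3), over 1.2933 Mb and 46 genes. The list of homeobox genes outside the Hox and Pax groups also held 1, in ct (78.6), among 47 genes. It leaves out NK7.1, a homeobox gene with a peak of 83.8 that was named after its value was seen, and hth, which was counted above. The Hox genes (8) and the glial genes with distal introns (14) held 0, which leaves shares of up to 32.4% and 21.5% inside their 95% intervals. The 85 cytoplasmic ribosomal protein genes have no distal intronic sequence. These intervals were wide for every list: 11.0% to 42.1% of genes for EGF receptor, FGF, Notch and Ras signalling and 0.385% to 11.3% for ion channels. No test was made of differences between lists.

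The strongest distal intronic peaks were mostly in the thresholded lists of both replicates, and the weaker ones mostly were not. The conservative list was itself selected for reproducibility between the replicates. Agreement over its peaks, and its change with signal, are therefore a description and no independent measure of reproducibility. Of the 244 peaks, 73 (29.9%, 24.5% to 35.9%) overlapped a thresholded peak of both replicates, against 44.2% of all arm peaks, and 81 (33.2%) overlapped one in neither. Replicate 1 alone held 33 and replicate 2 alone held 57. Among the 50 strongest, 47 were in both lists, and among the other 194, 26 were. The lower share moved with signal: for peaks of 100 to 150, the share in both lists was 47.6% of 63 distal intronic peaks, 52.1% of 71 intronic peaks nearer a TSS, 49.8% of 217 promoter peaks and 63.0% of 46 intergenic peaks. For peaks of 150 or more it was 97.1%, 100%, 96.7% and 96.8%. For peaks of 80 to 100 it was 7.69%, 11.1%, 9.21% and 11.4%, with overlapping intervals in each band, overlapping peaks left out.

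**Figure D2:**
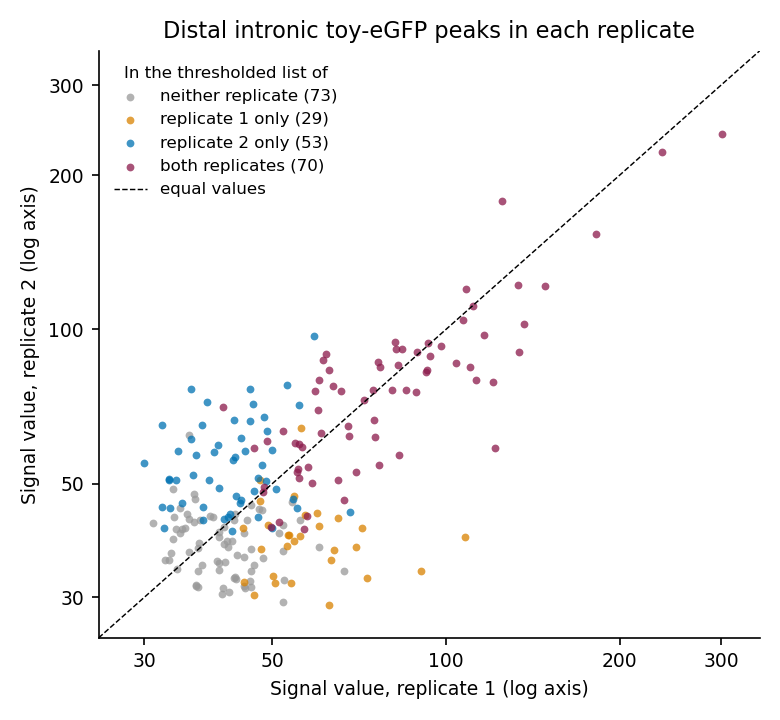
Signal values in replicate 1 and replicate 2, on log axes, for the 225 distal intronic peaks that overlap no stronger peak and have a ranked peak in both replicates, coloured by the thresholded lists that hold them. The peaks in both lists occupy the upper right, led by Tlk at 301 and 241, and those in neither lie at the lower left.

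Over the 225 peaks that had a value in both replicates and overlapped no stronger peak, the Spearman correlation between replicates was 0.48. The Pearson correlation of log2 values was 0.69. These peaks share each library and had been selected for reproducibility between the replicates. The log2 ratio of replicate 2 to replicate 1 had a median of -0.05 and an SD of 0.44 over peaks, and 102 of the 225 were higher in replicate 2. It was lowest for a peak in dnr1, with 108 in replicate 1 and 39.3 in replicate 2 (log2 ratio -1.45). It was highest for a peak in CG32264, with 36.2 and 76.6 (1.08). No ranked peak of replicate 2 overlapped the peaks in CG45088, wdb, Ttd14 and Drak, whose series values were 70.2 to 92.6.

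Distal intronic peaks had a lower median signal value than nearer intronic, promoter and intergenic peaks in the series list and in each replicate. The medians were 92.6 in the series list, 48.0 in replicate 1 and 45.6 in replicate 2. Intronic peaks at 500 to 2000 bp from a TSS had 109.8, 56.0 and 53.5, promoter peaks 116, 55.3 and 60.9, and intergenic peaks 97.2, 51.1 and 50.2. The 30 exonic peaks had medians of 82.9, 47.6 and 50.6, below the distal intronic ones in the series list and in replicate 1. The difference from intergenic peaks, distal intronic minus intergenic, was -4.62 in the series list, and it reversed to 1.76 among peaks with a discovery rate of at most 0.001. The quartiles of the groups overlapped throughout. Within the distal intronic peaks, distance from the TSS made little difference: the median was 89.4 at 2000 to 3000 bp, 98.0 at 3000 to 5000 bp, 92.7 at 5000 to 10000 bp and 91.9 beyond. The Spearman correlation of signal with distance was 0.03 over 244 peaks. No test was made of these differences, since peaks are not replicates.

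**Figure D3:**
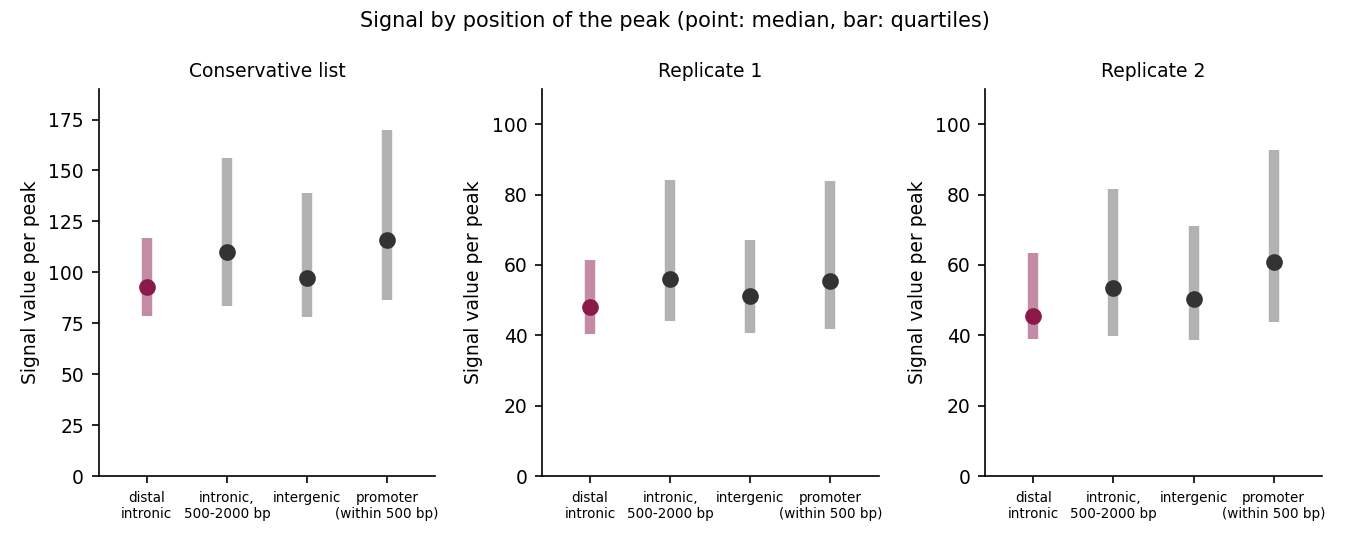
Median (point) and quartiles (bar) of the signal value per peak for distal intronic, nearer intronic, intergenic and promoter peaks, in the conservative list and in each replicate. The distal intronic median is the lowest of the 4 in each panel, at 92.6, 48.0 and 45.6, and the bars overlap.

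Just inside the 2000 bp limit were peaks in pot (2008 bp, signal value 68.6), IP3K2 (2013 bp, 71.4) and the noncoding RNA gene lncRNA:CR44320 (2014 bp, 157). Just outside it were peaks in RhoGAP18B (1991 bp, 111), Rtnl1 (1971 bp, 83.3) and Rab11 (1962 bp, 4.14, a peak that overlaps a stronger one). The farthest peaks lay 42267 bp from a TSS in mamo (110), 41788 bp in Snoo (102) and 36608 bp in kirre (94.3).

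Distal intronic peaks of the conservative list lay closer to promoters than the other distal intronic peaks of the authors' ranked list, which holds candidate peaks of any reproducibility. The median distance to the nearest TSS was 4755.5 bp (quartiles 3166.75 and 7900.5), against 7430 bp for the 37426 ranked peaks left out of the conservative list. The nearest TSS belonged to a gene other than the host for 79 peaks (32.4%), against 48.5%. They also lay in shorter introns, with medians of 11618.5 and 14696 bp, and in shorter host genes, with medians of 34636 and 54232 bp.

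**Figure D4:**
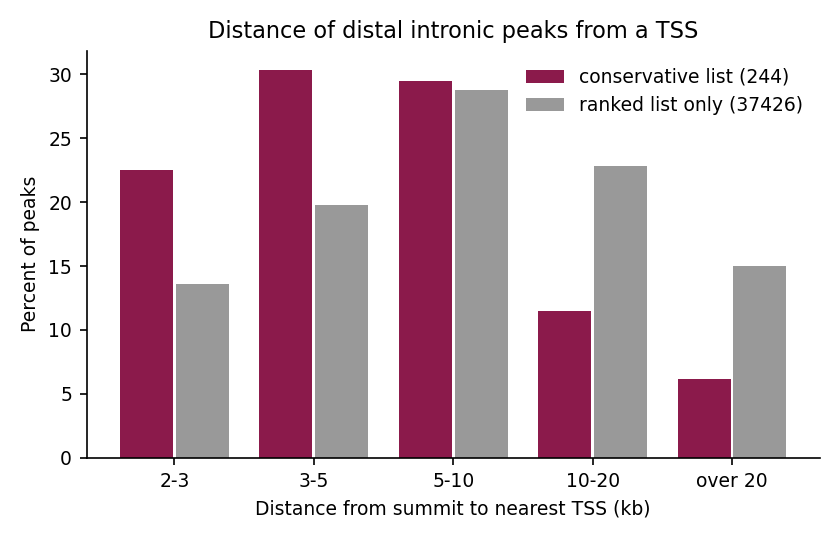
Percent of distal intronic peaks by distance to the nearest TSS, in kb, for the 244 of the conservative list and the 37426 found in the ranked list alone. The bins from 2 to 5 kb hold more of the conservative list and those beyond 10 kb hold less of it.

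First introns, counted from the 5′ end of the host gene with the exons of all its transcripts merged, held 94 of the 244 peaks (38.5%, 32.6% to 44.8%), against 24.3% of the ranked peaks left out. At 2000 to 3000 bp from a TSS the share was 49.1% (36.4% to 61.9%) against 33.3%, and at 3000 to 5000 bp it was 35.1% (25.2% to 46.5%) against 30.9%. At 5000 to 10000 bp it was 36.1% (26.0% to 47.6%) against 27.1%, and beyond 10000 bp it was 34.9% (22.4% to 49.8%) against 15.4%. In the bands from 3000 to 5000 bp and from 5000 to 10000 bp the interval held the share of the ranked peaks left out, and in the other 2 it lay above that share. The summit windows had a median GC content of 36.8%, against 44.8% for the ranked peaks left out, and medians of 35.8% to 38.1% over the bands, against 44.3% to 44.8%. How far base composition contributes to which candidates pass the authors' threshold was not tested.

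Distal intronic sequence made up 30.8% of the chromosome arms (42.2 Mb). It held 5.78 conservative peaks per megabase, against 41.1 in sequence within 500 bp of a TSS, 19.1 in introns at 500 to 2000 bp and 4.12 between genes. Of the 37670 distal intronic candidates in the ranked list, 0.648% were in the conservative list, against 1.11% of all 126842 on the arms, 4.07% at promoters and 0.515% between genes. The X chromosome held 69 of the 244 peaks (28.3%, 23.0% to 34.2%), or 8.62 per megabase of its distal intronic sequence, while 2L, 2R, 3L and 3R held between 4.91 and 5.99. Of the ranked candidates on the X, 0.853% (0.674% to 1.08%) were in the conservative list, against 0.556% to 0.634% on those 4 arms, with overlapping intervals. Of intronic peaks nearer a TSS 27.9% lay on the X, of promoter peaks 17.6% and of intergenic peaks 10.1%. The ranked candidates also differed: 21.5% of distal intronic, 19.3% of nearer intronic, 16.7% of promoter and 14.4% of intergenic ones lay on the X. The Y held 0 of its 169 candidates, which leaves up to 2.22% inside the interval.

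Summit windows were then compared with windows of the same length 1000 bp away for 16 binding motifs on both strands, by an exact 2-sided McNemar test over the 244 pairs with Benjamini-Hochberg adjustment. These p-values describe the pairs of windows, not the spread between embryo collections. Of the 16 motifs 0 passed (0.0%), and 1 had an unadjusted p under 0.05. That was the paired-class homeodomain dimer, TAAT and ATTA separated by 3 bases with 1 mismatch allowed, found in 28.3% of summits and 20.1% of flanks (p = 0.0422, exact McNemar test, adjusted p = 0.675). Without replicate 2, in the 126 distal intronic peaks of replicate 1's list, the dimer passed, 20.6 percentage points more frequent at summits (adjusted p = 0.00356, exact McNemar test). Without replicate 1, in the 165 of replicate 2's list, it did not pass and was 6.67 percentage points more frequent at summits. The homeodomain core TAATTA, which overlaps dimer sites in its letters, was in 13.9% of summits and 11.5% of flanks (adjusted p = 1, exact McNemar test). Among the 14 strand-collapsed 6-mers made of 3 A and 3 T bases, its ratio of summits to flanks ranked 11.

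Neither motif for the paired domain passed the test, which does not show equal shares at summits and flanks. The consensus of the Pax6 paired domain, with 2 mismatches allowed, was in 11.9% of summits and 11.1% of flanks. The paired domain core TCACGC was in 3.28% and 5.33%, lower at summits with overlapping intervals. The Hth site TGACAG was in 6.97% and 6.56%, the GAGA factor site GAGAGAG in 2.05% of each, the Zelda site CAGGTAG in 2.05% and 1.64%, and the AP-1 site TGACTCA in 2.87% of each. The E-boxes CAGCTG (6.56% and 9.84%) and CACATG (9.84% and 10.7%), the Grainy head site AACCGG (2.46% and 3.28%), the Hox-Exd core TGATTTAT (1.64% and 2.46%), CACACACA (3.28% and 4.10%) and the promoter element TATCGATA (0.410% and 0.820%) were lower at summits, with overlapping intervals. The promoter element GGTCACAC and the ETS site CCGGAAGT were in 0 summits, which leaves up to 1.55% inside the interval. In the same test the dimer passed at intronic peaks nearer a TSS, with 35.2% of 219 summits and 20.1% of flanks (adjusted p = 0.00716, exact McNemar). It also passed at promoter peaks, with 34.1% of 750 summits and 18.0% of flanks (adjusted p = 2.63e-11, exact McNemar). There, however, 4 of the 16 motifs and 619 of the 2080 6-mers passed, and GC content was 36.3% at summits and 43.8% in flanks. GC content was also lower at summits of distal intronic (38.2% and 41.5%), nearer intronic (36.4% and 41.0%) and intergenic peaks (39.2% and 41.1%). Summits and flanks were thus not matched for base composition in the tests of motifs and 6-mers. At the 159 intergenic peaks the dimer's shares were 27.0% and 23.9% (adjusted p = 1, exact McNemar). Whether the dimer's share differs between these positions was not tested.

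Of all 2080 6-mers, counted once for both strands, 5 passed the same exact test (0.24%) and 205 had an unadjusted p under 0.05. By the exact test, 4 were more frequent at summits: ACAGTG (24.2% of summits, 8.61% of flanks, adjusted p = 0.00797), AGTGTA (20.1% and 5.74%, adjusted p = 0.00797), AGAGTA (8.20% and 0.410%, adjusted p = 0.0145) and AATCTA (16.4% and 4.92%, adjusted p = 0.0321). GCAGCA was less frequent (9.02% and 22.1%, adjusted p = 0.0322 by the exact test). The next 5 did not pass. They were GTGTAA (18.4% and 6.97%), ATATTA (32.4% and 17.2%), CAGTGC (16.4% and 6.56%), ACACTG (15.6% and 5.33%) and CGATCA (0.820% and 5.74%), with adjusted p from 0.0759 to 0.102. Several of these overlap in their letters, so they are not separate counts. With the flank taken on the other side of the summit, 0 of the 2080 passed the exact McNemar test with adjustment (157 at an unadjusted p under 0.05), ACAGTG then being in 11.1% of flanks (adjusted p = 0.108). AGAGTA and AATCTA were then 2.05 and 1.64 percentage points more frequent at summits. Leaving out overlapping peaks was the only alternative in which these 2 passed. Without replicate 2 the ACAGTG shares were 21.4% and 11.1% (adjusted p = 0.791, exact McNemar), and without replicate 1 AGTGTA no longer passed (adjusted p = 0.14). In windows reaching 50 bp to each side ACAGTG was in 6.97% of summits and 4.10% of flanks (adjusted p = 0.894, exact McNemar).

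ACAGTG and AGTGTA lay on both sides of the summit. ACAGTG had 71 matches in 59 of the 244 windows, at a median of 63.5 bp from the summit, with 20 within 50 bp. Its share was 27.0% in windows centred 100 bp to the left, 24.2% at the summit and 23.8% 100 bp to the right, and between 4.92% and 11.5% at 300 bp or more. AGTGTA was at 20.1% at the summit and between 5.33% and 9.84% at 300 bp or more. In the 37425 summit windows of ranked distal intronic peaks left out of the conservative list ACAGTG was in 7.83%, AGTGTA in 7.23%, AGAGTA in 4.59%, AATCTA in 7.15% and GCAGCA in 19.6%, each nearer to the flanks of the conservative peaks than to their summits, with the exception of AGAGTA.

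**Figure D5:**
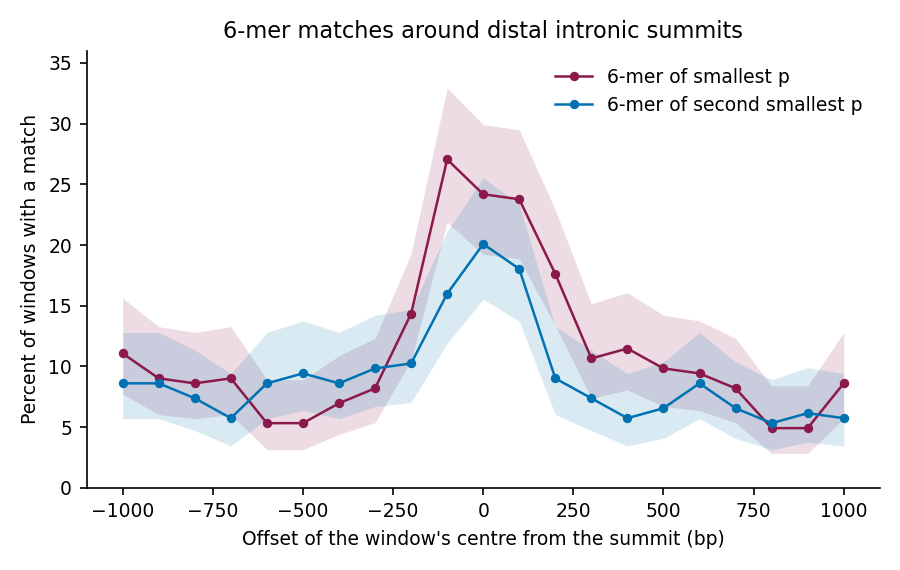
Percent of 244 windows, each reaching 100 bp to both sides of its centre, holding ACAGTG (the 6-mer of smallest p) or AGTGTA (the second smallest), by the offset of the window's centre from the summit, with 95% Wilson intervals shaded. Both rise within 200 bp of the summit, to 27.0% and 20.1%.

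The 59 distal intronic peaks with ACAGTG had a median signal value of 104, against 90.3 for the 185 without it. In replicate 1 the medians were 52.9 and 47.5, and in replicate 2 they were 53.9 and 44.5. ACAGTG was not confined to distal introns: it passed the same exact McNemar test at intronic peaks nearer a TSS (26.5% of summits and 10.5% of flanks, adjusted p = 0.00902) and at promoter peaks (18.1% and 7.20%, adjusted p = 9.54e-09). Of the 2080 6-mers, 9 passed at the former and 619 at the latter. At the 159 intergenic peaks the shares were 20.1% and 8.18% (adjusted p = 0.764, exact McNemar).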

How the data were processed

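The files are peak lists in narrowPeak form on dm6, 1 thresholded and 1 ranked list per replicate and the lists of the series. Per the text deposited with the samples, each replicate's lists came from its own alignments and 1 further input shared by all lists, and the series lists from both replicates. Which aligner and caller were run is not stated there or in the labels. The signal value of each peak and the −log10 of its irreproducible discovery rate are the authors' own deposited values. The scaling of the signal is not stated, peak lists give no read depth, and a further 8 columns of the ranked series lists, whose replicate is not named, were not used.

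Summits were placed on Ensembl release 115 genes (BDGP 6.54), leaving out transposable element insertions, with promoters within 500 bp of a TSS. A replicate's value is that of its overlapping ranked peak with the nearest summit. Sequence windows, 100 bp to each side of a summit, came from the RefSeq Release 6 genome. Motifs and 6-mers were compared with flanks 1000 bp toward higher coordinates by an exact McNemar test with Benjamini-Hochberg adjustment at 0.05, tested first on simulated windows with planted 6-mers. The simulated summits and flanks had the same base composition, unlike the real ones, so calls due to composition were not assessed. Intervals are 95% Wilson intervals and cover counting error only. Nothing in the labels says how the 2 biological replicates were collected, and tests over peaks do not measure the spread between them.

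Genes named are the hosts of the 20 strongest peaks, hosts of at least 3, up to 4 hosts per gene list, Pax and retinal determination genes, and peaks nearest the 2000 bp limit. A few others were named because of their values. Of 491 symbols in 15 gene lists, 8 were renamed and 4 did not match. The result of 1 list and 1 summit sequence are not reported here. The rule for the peaks, the gene lists and the motifs were chosen with earlier results of these data known. Alternatives were other TSS limits, gene models, peak lists, thresholds, overlaps, windows and flanks. Python 3.11.15, numpy 2.4.6, pandas 2.3.3, scipy 1.17.1 and matplotlib 3.10.9 were used.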

Additional observations from a re-analysis of the deposited data

How the results depend on the processing

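No paired analysis was possible because the series has 1 group. With a TSS limit of 1000 bp the peaks were 25.5% of arm peaks in 283 host genes, and the differences in median signal were -21.1 from nearer intronic, -19.8 from promoter and -1.04 from intergenic peaks. With 5000 bp there were 115 peaks (8.20%) in 95 genes, and the difference from nearer intronic peaks was -10.7. In the pooled list the median signal was 83.3, 21.2% of peaks were in both replicates' lists, and the differences were -10.8, -16.7 and -1.20. At a discovery rate of at most 0.001 there were 60 peaks (10.3%) in 52 genes, with a median of 161.9, 93.3% in both lists, and differences of -4.32 and -13.3, and that from intergenic peaks reversed to 1.76. Requiring that at least 50% of each peak be shared put 24.2% in both lists. Leaving out either replicate gave 126 to 165 peaks, 13.6% to 15.5% of arm peaks, in 105 to 132 genes, with medians of 56.1 to 62.2 on a single replicate's scale. The differences were then -10.1 to -7.62 from nearer intronic, -14.3 to -9.90 from promoter and -4.42 to -2.57 from intergenic peaks. The number of 6-mers called was 3 in windows reaching 50 bp to each side (0 of the main 5 among them), 0 with the flank toward lower coordinates, 31 with a flank 2000 bp away (2 of the main 5), 3 in the pooled list (2 of the main 5), 0 at a discovery rate of at most 0.001 and 1 to 2 without a replicate. ACAGTG did not pass in 4 of the 9 alternatives run for the 6-mers, the shorter window, the lower flank, the stricter discovery rate and without replicate 2, with adjusted p of 0.108 to 1 in the exact McNemar test. AGTGTA did not pass in the shorter window, the lower flank, the pooled list, the stricter discovery rate and without replicate 1. Its adjusted p there was 0.112 to 0.383 in the same test. The number of motifs called was 0 to 1 without a replicate, the 1 being the homeodomain dimer without replicate 2 (20.6 percentage points higher at summits, adjusted p = 0.00356, exact McNemar test). RefSeq gene models and the middle of the peak in place of the summit each kept all 244 peaks. Chosen after seeing the data, counting transposable elements as genes left 239, and leaving out overlapping peaks left 229, with 6 6-mers called that include the same 5. The cause of these changes was not tested beyond the smaller or larger sets the settings themselves make.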
